A study of Mus musculus with 20 samples.

Results

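The comparison set regulatory T (Treg) cells of wild-type mice against CD4+Foxp3- T cells of the same genotype, both sorted from pooled spleen and peripheral lymph nodes (pLNs), across all genes. It used 4 of the 20 RNA sequencing libraries of the study, the 2 WT Treg and the 2 WT CD4+Foxp3- libraries of this tissue, chosen by their labels. Of the 16740 genes of the count table, 16357 had at least 1 count and were tested. The WT mice were C57BL/6 mice 14 weeks old that carried Foxp3Cre, a YFP-Cre fusion knocked into the 3' UTR of Foxp3, so both WT cell types came from mice with this allele. Treg cells were sorted as CD4+YFP+ cells and CD4+Foxp3- cells as CD4+YFP- cells, which makes the difference in Foxp3 itself a check of the sort. The study compared these mice with Tet2/3 fl/fl Foxp3Cre (DKO) mice, in which Cre deletes Tet2 and Tet3 in Foxp3-expressing cells, and repeated the 4 groups with 3 replicates each in mesenteric lymph nodes (mLN). Both DKO cell types of this tissue came, per the study, from 2 littermates, of which 1 had the more enlarged spleen, but neither the study nor the labels tie replicate numbers to animals or say whether WT Treg and WT CD4+Foxp3- libraries shared an animal. The CD4+YFP- gate holds every CD4+ cell without YFP, naive and antigen-experienced cells alike, and in sorted bulk RNA a change in the share of a subset and a change of RNA per cell cannot be told apart.

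Treg cells are the CD4+ T cells that restrain immune responses, and the transcription factor Foxp3 defines the lineage. They carry the high-affinity IL-2 receptor while making little IL-2, so they depend on IL-2 from other T cells, which reaches the nucleus through STAT5. Their known means of suppression include CTLA-4, which takes costimulatory ligands from antigen-presenting cells, activation of latent TGF-beta, inhibitory cytokines, and the breakdown of extracellular ATP to adenosine. Treg cells in lymphoid tissue also bear receptors such as CD103, KLRG1 and ST2 that mark activated or tissue-homing subsets.

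The 4 libraries held between 13525932 and 15008292 counted reads, and the floor set for a gene with no read, 3 counts in a library, equalled 0.209 to 0.241 CPM (counts scaled to the library total, with TMM factors) and takes in counting error alone. Pearson's r of log2(TPM + 1) across genes, which are not independent replicates, was 0.998 between the Treg replicates, 0.997 between the CD4+Foxp3- replicates and 0.984 to 0.986 between the cell types. Foxp3 was at 165 and 152 CPM in Treg cells (replicates 1 and 2, the order used throughout) and at 0.684 and 0.563 CPM in CD4+Foxp3- cells, as the labels state. The T cell markers were high in all 4 libraries, with a summed level of 7423 to 8924 CPM. DKO libraries enter the estimate of the spread, since the 4 groups of the tissue were fitted together, and their replicates were less alike, with r of 0.988 in Treg and 0.977 in CD4+Foxp3- cells.

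Of the 16357 genes tested, 654 (4.0%) were called different between WT Treg and WT CD4+Foxp3- cells by edgeR's quasi-likelihood test, with thresholds of 0.05 on the p adjusted by Benjamini-Hochberg and of 1.5 on the fold change. Treg cells were higher for 406 genes (2.48%) and lower for 248 (1.52%). Of these, 74 genes were at least 8-fold higher and 69 at least 8-fold lower in Treg cells. The median log2 fold change was 1.65 among the higher and -2.08 among the lower genes. Both lie away from the median of 0 over all genes tested partly by selection, since a call needed a 1.5-fold change. The 2 libraries of 1 cell type lay wholly above those of the other for all 654 genes, as they did for 55.3% of all genes tested. Other fits to these same libraries could therefore hardly reverse the direction of a called gene. The count varied widely between fits. With the replicate number as a block edgeR called 360 genes, 319 of them among the 654. On simulated counts drawn with the gene-wise dispersions of these libraries, a large share of the genes the test called were unchanged, both here and for the genotype by cell type term, while with trended dispersions the share stayed close to the threshold, so the adjusted p-values may be too small. Leaving out WT Treg replicate 1 or 2 gave 144 and 169 calls, leaving out WT CD4+Foxp3- replicate 1 or 2 gave 198 and 158, and leaving out DKO CD4+Foxp3- replicate 1 or 2 gave 1407 and 1375. With the 4 WT libraries alone edgeR called 2060 genes, among them all 654. In every one of the 18 other fits each of the 654 genes that was tested kept its direction, and 80 genes, 55 higher and 25 lower, were called in all 18. These 80 are named below as called in every fit, and the calls of other genes were lost in at least 1.

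**Figure D1:**
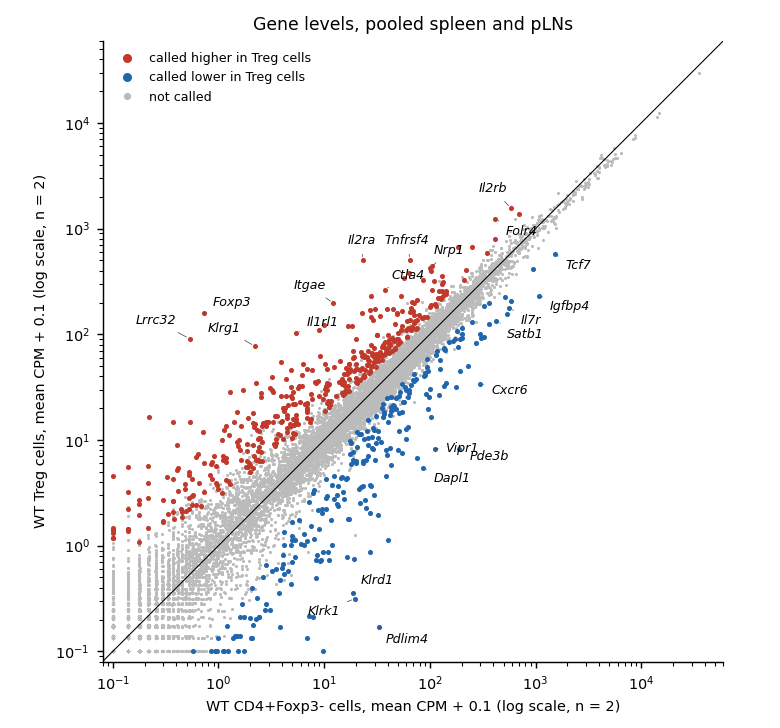
Mean level of each tested gene in the 2 WT CD4+Foxp3- libraries (horizontal axis) against the 2 WT Treg libraries (vertical axis), in CPM plus 0.1 on log scales, with genes called higher in Treg cells in red, lower in blue and not called in grey. Foxp3, Lrrc32 and Klrg1 lie far above the diagonal of equal levels, and Pdlim4, Klrk1 and Klrd1 far below it.

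Among transcription factors, Foxp3, Ikzf4 and Ikzf2 were higher in Treg cells, and several factors of naive and of effector cells were lower but still expressed. Of 24 tested genes in a list of Foxp3 and factors that work with it, 4 were called higher in Treg cells and 6 lower, with a median log2 fold change of -0.06. Foxp3 (chromosome X, 7156802 to 7172369 of NCBIM37) was higher by a log2 fold change of 7.97 ± 0.39 (SE, n = 2 against 2, adjusted p = 6.72e-07). Ikzf4 (Eos), which acts as a Foxp3 corepressor, was at 57.3 and 52.1 CPM in Treg cells against 4.63 and 2.89 CPM (log2 fold change 3.85 ± 0.33, adjusted p = 5.79e-05). Ikzf2 (Helios) has been reported to mark thymus-derived Treg cells, though the study calls its reliability controversial. Its level was 425 and 331 CPM against 69.0 and 57.6 CPM (log2 fold change 2.58 ± 0.45, adjusted p = 0.00574). The third Ikaros gene called ran the other way: Ikzf1, which encodes Ikaros, was at 403 and 427 CPM in Treg cells and 936 and 970 CPM in CD4+Foxp3- cells (log2 fold change -1.20 ± 0.19, adjusted p = 0.00349). Gata1, best known from erythroid cells, was also higher in Treg cells (log2 fold change 2.78 ± 0.37, adjusted p = 0.000987). The 5 erythroid markers tested summed to at most 0.532 CPM in any of the 4 libraries. Hbb-b1, Hba-a1 and Ahsp were not in the count table, so this sum leaves out globin RNA. Tcf7, Lef1, Satb1, Bach2 and Runx3 made up the rest of the lower members.

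Tcf7, whose product TCF-1 maintains resting T cells, was at 573 and 570 CPM in Treg cells and at 1542 and 1490 CPM in CD4+Foxp3- cells (log2 fold change -1.41 ± 0.23, adjusted p = 0.00417). Its partner Lef1 was at 92.5 and 93.5 CPM against 296 and 312 CPM (log2 fold change -1.71 ± 0.30, adjusted p = 0.00649). Satb1, a chromatin organizer that Foxp3 is known to repress, was at 127 and 138 CPM against 411 and 441 CPM (log2 fold change -1.69 ± 0.26, adjusted p = 0.00282). In all 3 the replicates lay close together and the cell types far apart. Foxp3, Ikzf4 and Gata1 were called in every fit. With WT Treg replicate 1 or 2 or WT CD4+Foxp3- replicate 1 or 2 left out, 3 members of the list were called higher each time, without Ikzf2, and 0, 0, 1 and 0 members were called lower.

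The list of 30 helper and effector fate factors had 2 members called higher and 5 lower. Id2, an inhibitor of E proteins that is high in effector and innate-like T cells, was at 47.3 and 53.6 CPM in Treg cells and at 255 and 204 CPM in CD4+Foxp3- cells (log2 fold change -2.19 ± 0.23, adjusted p = 0.000218), and it was called in every fit. Eomes, a factor of cytotoxic and memory cells, was at 2.61 and 2.65 CPM against 30.7 and 18.1 CPM (log2 fold change -3.21 ± 0.65, adjusted p = 0.0138), and Tbx21 (T-bet, the Th1 factor), Zbtb16 (PLZF, a factor of NKT cells) and Epas1 were lower too. The higher members were Ahr, the aryl hydrocarbon receptor, at 38.7 and 34.0 CPM against 8.51 and 8.68 CPM (log2 fold change 2.08 ± 0.24, adjusted p = 0.000352), and Irf8 (log2 fold change 1.08 ± 0.19, adjusted p = 0.00681). Prdm1 (Blimp-1), a factor of effector Treg cells, was at 22.8 and 22.1 CPM against 8.2 and 10.2 CPM and missed the threshold (adjusted p = 0.0516). With any 1 of the 4 WT libraries left out, 1 member of the list was called higher and 1 lower.

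The IL-2 pathway differed at its receptor, its feedback inhibitors and its ligand. Il2ra (chromosome 2, 11564419 to 11614818), the alpha chain CD25 that gives the receptor its high affinity, was at 511 and 494 CPM in Treg cells and at 26.0 and 19.9 CPM in CD4+Foxp3- cells (log2 fold change 4.45 ± 0.20, adjusted p = 3.14e-07). Il2rb, the beta chain, was at 1528 and 1581 CPM against 639 and 534 CPM (log2 fold change 1.41 ± 0.20, adjusted p = 0.00161). The common gamma chain gene Il2rg was at 916 and 955 CPM against 959 and 965 CPM and was not called (log2 fold change -0.04 ± 0.20, adjusted p = 1). So the Treg libraries lay far above the others for CD25, moderately above for the beta chain, and close to them, slightly below, for the gamma chain.

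Of the SOCS family inhibitors that STAT5 induces, Cish was at 164 and 176 CPM in Treg cells against 27.5 and 26.1 CPM (log2 fold change 2.67 ± 0.30, adjusted p = 0.000352). Socs2 was at 42.4 and 50.2 CPM against 7.98 and 7.07 CPM (log2 fold change 2.62 ± 0.38, adjusted p = 0.0017). Socs1 and the kinase gene Pim1 completed the 6 members of this list of 23 that were called higher. Il7r, the IL-7 receptor alpha chain CD127 of resting T cells, was at 174 and 181 CPM in Treg cells and at 547 and 585 CPM in CD4+Foxp3- cells (log2 fold change -1.67 ± 0.37, adjusted p = 0.0235). Il2 itself was at 0.154 and 0.0696 CPM against 2.20 and 2.41 CPM, which is 3 counts in total in Treg cells, and the level in CD4+Foxp3- cells was higher by a ratio of 21 (95% exact binomial interval 6.85 to 105, for counting error only, edgeR adjusted p = 0.0114). Il2ra and Cish were called in every fit. With WT Treg replicate 1 or 2 or WT CD4+Foxp3- replicate 1 or 2 left out, 4, 4, 4 and 2 members of the list were called higher, and in each of these fits 0 were called lower, so that the calls of Il7r and Il2 rest on having all 4 libraries.

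Promoter sequence was searched because STAT proteins, which carry the IL-2 signal, bind the letters TTCNNNGAA, a palindrome that reads the same on both strands. The RefSeq sequences (build GRCm38.p6, another build than that of the counts) gave 250 bases before the start sites of 283 of the 406 higher and 176 of the 248 lower genes. The letters were present in 8.22% of the 365 promoters of genes higher in Treg cells, in 5.62% of the 249 promoters of lower genes, in 6.13% of the 14204 promoters of tested genes and in 7.02% of all 32851 promoters of the table. GTAAACA, the core that forkhead proteins bind, searched on both strands, was in 3.56%, 0.803%, 2.16% and 3.17% of the same sets. Of 23 promoters of the IL-2 list, 2 held the STAT letters, 1 each of Socs3 and Il7r. The sequences below hold the STAT letters and were chosen after their values were seen. They belong to Il7r and to 3 genes outside the IL-2 list that were higher in Treg cells. The promoters of Cish and Il1rl1 and the first start sites of Foxp3 and Tnfrsf9 held no STAT match and are not shown. The match is in capitals, each sequence runs 5' to 3' on the gene's strand, and positions count back from the start site. A match is a description of the letters and no evidence of binding.
Foxp3, second start site, chrX:7580233-7580482, + strand, match at -139 to -131: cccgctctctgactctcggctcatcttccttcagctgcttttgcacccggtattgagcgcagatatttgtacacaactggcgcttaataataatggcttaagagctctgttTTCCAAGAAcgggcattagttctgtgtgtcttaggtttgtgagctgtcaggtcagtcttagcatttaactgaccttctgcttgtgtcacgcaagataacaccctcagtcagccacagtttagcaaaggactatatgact
Tnfrsf18, chr4:156026072-156026321, + strand, match at -99 to -91: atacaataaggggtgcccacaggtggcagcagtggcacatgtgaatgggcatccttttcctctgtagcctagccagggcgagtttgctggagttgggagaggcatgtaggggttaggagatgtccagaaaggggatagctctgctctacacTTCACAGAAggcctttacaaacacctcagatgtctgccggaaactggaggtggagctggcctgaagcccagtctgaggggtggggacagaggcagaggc
Tnfrsf9, second start site, chr4:150927749-150927998, + strand, match at -136 to -128: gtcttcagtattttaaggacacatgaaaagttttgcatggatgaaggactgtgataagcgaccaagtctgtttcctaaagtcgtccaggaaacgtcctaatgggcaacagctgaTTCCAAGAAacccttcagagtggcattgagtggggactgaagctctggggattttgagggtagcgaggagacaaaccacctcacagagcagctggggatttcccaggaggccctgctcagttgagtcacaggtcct
Il7r, chr15:9529877-9530126, - strand, match at -142 to -134: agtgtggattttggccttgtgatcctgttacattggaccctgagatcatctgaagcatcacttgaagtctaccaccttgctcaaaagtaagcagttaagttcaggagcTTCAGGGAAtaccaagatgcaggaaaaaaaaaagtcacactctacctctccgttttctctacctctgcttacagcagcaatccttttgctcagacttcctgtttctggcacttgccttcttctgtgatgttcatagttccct

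Of the 25 lists other than cell type markers, the molecules by which Treg cells are known to suppress had the highest median. Of 23 tested members, 11 were called higher and 1 lower, with a median log2 fold change of 1.64. Lrrc32 (chromosome 7, 105642732 to 105650341), which encodes GARP, the protein that holds latent TGF-beta on the Treg surface, was at 91.1 and 90.5 CPM in Treg cells and at 0.304 and 0.563 CPM in CD4+Foxp3- cells (log2 fold change 7.69 ± 0.26, adjusted p = 1.5e-07). Itgb8, a subunit of the integrin that releases TGF-beta from GARP, was at 28.2 and 20.3 CPM against 8.43 and 6.67 CPM (log2 fold change 1.68 ± 0.42, adjusted p = 0.0438). Tgfb1, the gene for the cytokine, was at 177 and 173 CPM against 159 and 152 CPM and was not called (log2 fold change 0.17 ± 0.16, adjusted p = 0.789). Of these 3 genes Lrrc32 had by far the widest gap between the cell types.

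Ctla4 (chromosome 1, 60943844 to 60972676) was at 270 and 260 CPM in Treg cells and at 34.4 and 40.2 CPM in CD4+Foxp3- cells (log2 fold change 2.83 ± 0.59, adjusted p = 0.0175). Ebi3, the beta chain of IL-35, was at 39.8 and 35.2 CPM against 5.09 and 3.38 CPM (log2 fold change 3.14 ± 0.32, adjusted p = 0.000182). Entpd1 (CD39), the ectoenzyme that degrades ATP, was at 58.4 and 59.6 CPM against 21.1 and 16.5 CPM (log2 fold change 1.65 ± 0.34, adjusted p = 0.0152). Nt5e (CD73), which completes the step to adenosine, was at 352 and 281 CPM against 136 and 108 CPM, and its groups did not overlap, but it missed the threshold (log2 fold change 1.37 ± 0.36, adjusted p = 0.0574). Fgl2 and Penk, the gene of the enkephalin precursor, were higher with log2 fold changes of 1.64 and 2.73. The decoy receptor gene Il1r2 and the IL-1 receptor antagonist gene Il1rn, both of which block IL-1, were higher with log2 fold changes of 3.61 and 3.38. Areg, the tissue repair factor amphiregulin, was at 3.46 and 2.71 CPM against 1 read in total in CD4+Foxp3- cells, a ratio of 78.6 (95% exact binomial interval 13.7 to 3140, counting error only).

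2 of the best known suppressive genes were low in both cell types here. Il10 was at 3.15 and 5.85 CPM in Treg cells against 1.44 and 2.57 CPM (log2 fold change 1.17 ± 0.70, adjusted p = 0.555), and Gzmb, granzyme B, was at 8.76 and 14.7 CPM against 5.47 and 5.63 CPM (log2 fold change 1.08 ± 0.55, adjusted p = 0.438). Prf1, the pore-forming protein perforin, was the 1 lower member, at 9.30 and 11.1 CPM in Treg cells and at 55.5 and 63.2 CPM in CD4+Foxp3- cells (log2 fold change -2.54 ± 0.40, adjusted p = 0.00326). Lrrc32 and Ebi3 were called in every fit. With WT Treg replicate 1 or 2 or WT CD4+Foxp3- replicate 1 or 2 left out, 4, 4, 4 and 3 members of the suppressor list were called higher and 0, 0, 1 and 0 lower.

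Of a list of 29 Treg receptors of the cell surface and related Treg genes, 13 were called higher, with 0 lower by edgeR and by DESeq2, and 2 with a lower level at an unadjusted p under 0.05. Klrg1 (chromosome 6, 122220614 to 122232900), an inhibitory receptor for cadherins, was at 81.1 and 72.5 CPM in Treg cells and at 1.98 and 2.25 CPM in CD4+Foxp3- cells (log2 fold change 5.18 ± 0.38, adjusted p = 2.28e-05). Il1rl1 (ST2), the IL-33 receptor, was at 93.5 and 111 CPM against 6.61 and 3.94 CPM (log2 fold change 4.27 ± 0.28, adjusted p = 1.29e-05). Itgae, the integrin subunit CD103 that binds E-cadherin, was at 197 and 196 CPM against 12.4 and 11.8 CPM (log2 fold change 4.02 ± 0.40, adjusted p = 0.000153). In these 3 genes the higher of the CD4+Foxp3- libraries stayed far under the lower of the Treg libraries.

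Gpr83, an orphan receptor long used as a Treg marker, was at 107 and 112 CPM in Treg cells against 8.28 and 9.41 CPM (log2 fold change 3.63 ± 0.30, adjusted p = 4.05e-05). Nrp1, neuropilin-1, a reported but, per the study, controversial marker of thymus-derived Treg cells, was at 478 and 368 CPM against 117 and 85.0 CPM (log2 fold change 2.07 ± 0.27, adjusted p = 0.00101). Folr4, which encodes folate receptor 4, was at 1301 and 1156 CPM against 466 and 363 CPM (log2 fold change 1.57 ± 0.22, adjusted p = 0.00135). Tigit, an inhibitory receptor for CD155, was at 216 and 183 CPM against 69.4 and 52.6 CPM and was not called (adjusted p = 0.0743), and neither was the costimulator Icos, at 356 and 335 CPM against 212 and 188 CPM (adjusted p = 0.552). The genes Cd81, Cd83, Cd86, Cd38, Slamf1 and Swap70, the last of which encodes an intracellular protein, were higher with log2 fold changes between 0.99 and 3.08. Klrg1, Il1rl1, Itgae, Gpr83, Swap70 and Il2ra were called in every fit, and with WT Treg replicate 1 or 2 or WT CD4+Foxp3- replicate 1 or 2 left out, 8, 8, 9 and 6 members were called higher.

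The TNF receptor superfamily holds the costimulatory receptors of T cells, and 6 of its 26 tested members were called higher and 1 lower, with a median log2 fold change of 0.14. Tnfrsf4 (OX40) was at 506 and 498 CPM in Treg cells and at 67.9 and 61.8 CPM in CD4+Foxp3- cells (log2 fold change 2.95 ± 0.47, adjusted p = 0.0034). Tnfrsf18 (GITR) was at 336 and 323 CPM against 90.3 and 80.9 CPM (log2 fold change 1.94 ± 0.20, adjusted p = 0.000194). Tnfrsf1b, the TNF receptor TNFR2, was at 712 and 637 CPM against 200 and 171 CPM (log2 fold change 1.86 ± 0.18, adjusted p = 0.000113), and it was called in every fit. These receptors, Tnfrsf9 (4-1BB, log2 fold change 2.58 ± 0.43), Tnfrsf8 (CD30, 2.83 ± 0.46) and Cd27 (0.65 ± 0.16) made up the 6. Tnfrsf19 was lower, with 1 read in total in the Treg libraries against 1.98 and 1.93 CPM, a ratio of 53.5 (95% exact binomial interval 9.16 to 2150, counting error only). Its call was made in 7 of the 18 other fits and was lost with any 1 of the 4 WT libraries left out. With WT Treg replicate 1 or 2 or WT CD4+Foxp3- replicate 1 or 2 left out, 2, 5, 2 and 2 members were called higher.

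**Figure D2:**
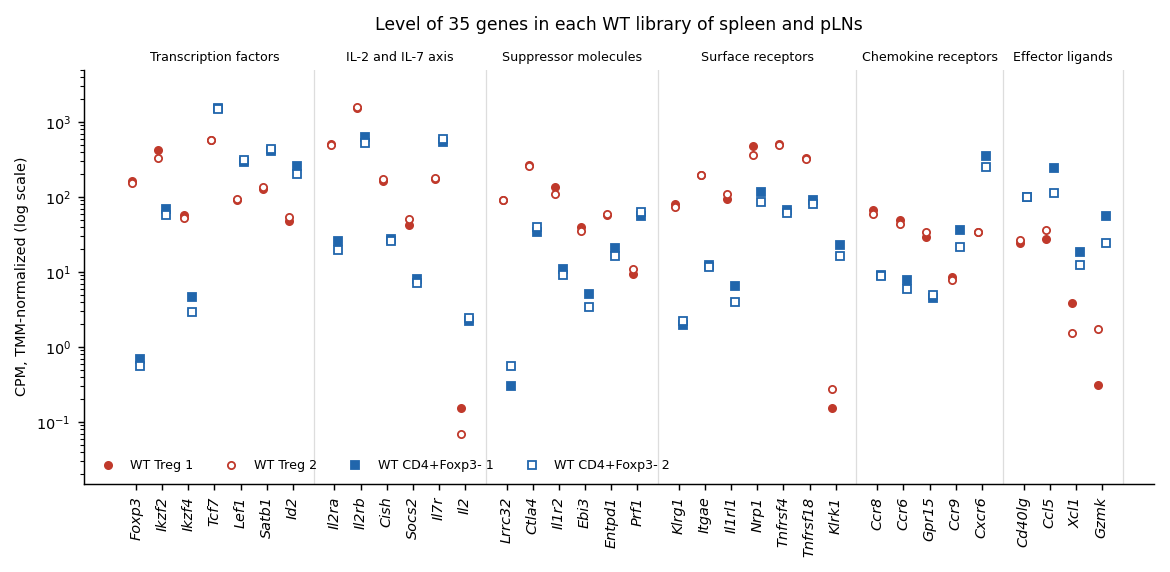
Level of 35 genes in each of the 4 WT libraries of spleen and pLNs, in CPM on a log scale, with circles for WT Treg and squares for WT CD4+Foxp3- libraries, filled for replicate 1 and open for replicate 2. The 2 cell types do not overlap in any of the 35 genes shown, which were chosen among called genes, and Il2 is the lowest in Treg cells at 0.154 and 0.0696 CPM.

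Receptors that guide migration divided, with 6 of 27 chemokine and sphingosine receptor genes called higher in Treg cells and 4 lower. Ccr8 was at 67.1 and 58.6 CPM in Treg cells against 9.19 and 8.76 CPM (log2 fold change 2.81 ± 0.45, adjusted p = 0.00373). Ccr6, the receptor for CCL20, was at 49.4 and 44.0 CPM against 7.75 and 5.95 CPM (log2 fold change 2.77 ± 0.23, adjusted p = 4.75e-05). Gpr15, a homing receptor of the colon, was at 29.4 and 33.7 CPM against 4.56 and 4.98 CPM (log2 fold change 2.72 ± 0.31, adjusted p = 0.000352). Ccr1, Ccr3 and Ccr4 were the other higher members. Cxcr6, the receptor for CXCL16 on tissue memory and innate-like T cells, was lower, at 34.0 and 34.1 CPM in Treg cells and at 351 and 249 CPM in CD4+Foxp3- cells (log2 fold change -3.14 ± 0.41, adjusted p = 0.000971). Ccr9, the receptor for the small intestine, was at 8.53 and 7.73 CPM against 36.5 and 21.9 CPM (log2 fold change -1.84 ± 0.33, adjusted p = 0.00666), and Cx3cr1 was lower as well. Cxcr1 had no read in either Treg library against 1.06 and 0.965 CPM and was at least 4.62-fold lower, against a floor of 3 counts per library. The lymph node receptor gene Ccr7 was at 368 and 381 CPM against 607 and 699 CPM and was not called (adjusted p = 0.259). Among 22 genes of selectins, integrins and related adhesion molecules, Itgae and Itgb8 were called higher and Itgax lower. Over all genes tested 2.48% were called higher and 1.52% lower. Of these adhesion genes only Itgae was called in every fit, and the calls of Itgb8 and Itgax were lost with any 1 of the 4 WT libraries left out. Ccr6 and Gpr15 were called in every fit, and with WT Treg replicate 1 or 2 or WT CD4+Foxp3- replicate 1 or 2 left out, 3, 5, 3 and 2 of these receptors were called higher and 0, 2, 2 and 2 lower.

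Genes of naive and resting T cells were lower in Treg cells in 13 of 28 members, with a median log2 fold change of -0.75. By edgeR 0 were higher, by DESeq2 1, and 1 had a higher level at an unadjusted p under 0.05. Pde3b, a phosphodiesterase that degrades cyclic AMP and is repressed in Treg cells, was at 7.84 and 8.35 CPM in Treg cells and at 186 and 192 CPM in CD4+Foxp3- cells (log2 fold change -4.54 ± 0.33, adjusted p = 2.2e-05). Dapl1 was at 4.61 and 6.06 CPM against 76.2 and 94.5 CPM (log2 fold change -3.99 ± 0.46, adjusted p = 0.000383). Igfbp4, which encodes a binding protein of insulin-like growth factors, was at 200 and 265 CPM against 995 and 1146 CPM (log2 fold change -2.20 ± 0.47, adjusted p = 0.0189). Als2cl, Ramp3, Actn1, Sidt1 and Ly6c2 were lower with log2 fold changes between -2.21 and -1.08, beside Il7r, Tcf7, Lef1, Satb1 and Bach2, which other lists also hold. Pde3b was called in every fit, and with WT Treg replicate 1 or 2 or WT CD4+Foxp3- replicate 1 or 2 left out, 2, 2, 4 and 2 members were called lower.

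Of 37 genes of the T cell receptor and costimulatory pathway 2 (5.41%, against 4.0% of all genes tested) were called lower, among them Themis, which sets signalling thresholds, at 85.9 and 80.3 CPM against 278 and 274 CPM (log2 fold change -1.73 ± 0.37, adjusted p = 0.0194). Among 28 immediate early genes of receptor stimulation 2 (7.14%) were called higher. The G protein regulator Rgs1 was at 170 and 175 CPM in Treg cells against 36.8 and 24.0 CPM (log2 fold change 2.50 ± 0.29, adjusted p = 0.00041, called in every fit), and the phosphatase gene Dusp4 was higher by 2.40 ± 0.44 on the log2 scale (adjusted p = 0.0083). Themis was not called with any 1 of the 4 WT libraries left out.

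Effector cytokines and the ligands of T cell help had more members called lower than higher in Treg cells. Of 26 tested members 6 were called lower and 2 higher, with a median log2 fold change of -1.04. Cd40lg, the ligand by which helper cells license B cells and dendritic cells, was at 24.5 and 26.7 CPM in Treg cells and at 98.7 and 99.4 CPM in CD4+Foxp3- cells (log2 fold change -1.95 ± 0.15, adjusted p = 2.57e-05), and was called in every fit. Il21, the cytokine of follicular helper cells, was at 4.92 and 6.47 CPM against 44.6 and 40.2 CPM (log2 fold change -2.89 ± 0.63, adjusted p = 0.0226). Ccl5 was at 27.4 and 35.9 CPM against 244 and 112 CPM (log2 fold change -2.49 ± 0.54, adjusted p = 0.022). The CD4+Foxp3- replicates thus differed from each other by more for Ccl5 than for Cd40lg or Il21. Xcl1, Fasl and Il2 were the other lower members and Lta and Tnfsf10 the higher ones, while Ifng was at 4.15 and 6.12 CPM against 14.5 and 12.4 CPM and was not called (adjusted p = 0.0731). With WT Treg replicate 1 or 2 or WT CD4+Foxp3- replicate 1 or 2 left out, 2, 1, 1 and 2 members were called lower.

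The killer cell lectin-like receptor (Klr) genes, most of which lie on chromosome 6 and encode receptors of NK cells and of some memory and innate-like T cells, held several of the lowest ratios. This group was assembled after its values were seen. Of 25 tested Klr genes, 9 were called lower and only Klrg1 higher. Klrk1 (NKG2D) was at 0.154 and 0.278 CPM in Treg cells and at 22.7 and 16.2 CPM in CD4+Foxp3- cells (log2 fold change -6.42 ± 0.49, adjusted p = 2.57e-05). Klrd1 (CD94) was at 0.231 and 0.278 CPM against 19.2 and 18.2 CPM (log2 fold change -6.15 ± 0.55, adjusted p = 6.81e-05). Klrc1 (NKG2A), the partner of CD94, had no read in either Treg library against 11.9 and 7.32 CPM and was at least 43.8-fold lower, against a floor of 3 counts per library. Klrb1c (NK1.1) was at 7.30 and 6.06 CPM against 95.2 and 57.5 CPM (log2 fold change -3.52 ± 0.36, adjusted p = 0.000182). With WT Treg replicate 1 or 2 or WT CD4+Foxp3- replicate 1 or 2 left out, 5, 5, 5 and 7 of the Klr genes were called lower.

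Lists of markers of NK, gamma delta, NKT and CD8 T cells share members with this group. The 9 NK cell markers, 5 of which are Klr genes of this group, summed to 64.3 and 63.3 CPM in Treg cells and to 269 and 184 CPM in CD4+Foxp3- cells, and 5 were called lower. The 6 markers of gamma delta and NKT cells summed to 46.7 and 47.4 CPM against 138 and 96.1 CPM (2 called lower). They include Klrb1c, at 7.30 and 6.06 CPM against 95.2 and 57.5 CPM, while Tcrg-C1, Tcrg-C2, Tcrg-C4 and Trdc were not in the count table. The 5 CD8 T cell markers summed to 23.4 and 20.6 CPM against 68.6 and 52.0 CPM, and the 2 called lower were Klrd1 and Eomes. Most of the gap in both sums thus lay in genes of the Klr group or the NK list. The defining gene Cd8a was at most 0.384 CPM in every one of the 4 libraries. Both populations were sorted as CD4+ cells, and how many cells of these types such a gate leaves in was not measured. The part of such cells in the lower levels of Id2, Eomes, Zbtb16, Cxcr6, Ccl5, Xcl1, Gzmk and the Klr genes was not tested. Gzmk, granzyme K, was at 0.307 and 1.74 CPM in Treg cells against 55.9 and 24.3 CPM (log2 fold change -5.25 ± 0.82, adjusted p = 0.00298), 1 of 3 lower members among 16 granzyme and cytotoxicity genes.

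Markers of B cells, myeloid cells and stroma had 1 member called higher. Cd79b, a chain of the B cell receptor complex, was at 28.8 and 26.2 CPM in Treg cells and at 2.51 and 2.33 CPM in CD4+Foxp3- cells (log2 fold change 3.50 ± 0.28, adjusted p = 3.13e-05), and it was called in every fit. Ms4a1, a defining B cell gene, was at most 0.209 CPM in all 4 libraries. The 14 B cell markers, Cd79b among them, summed to 41.6 and 36.6 CPM in Treg cells against 17.85 and 14.55 CPM. Of these 14, 10 had a log2 fold change above 0, and 3 reached a mean of 1 CPM in either cell type. Ebf1, Cr2, Vpreb3 and Fcrla had no read in CD4+Foxp3- cells. The part of B cell RNA in these levels was not tested. The 17 myeloid markers summed to 635 and 647 CPM against 368 and 398 CPM with 2 called lower, the 7 plasma cell markers to 274 and 264 CPM against 190 and 163 CPM with 1 called lower, the 10 dendritic cell markers to 86.2 and 90.8 CPM against 99.1 and 88.7 CPM with 2 called lower, the 11 markers of stroma and endothelium to 92.5 and 89.2 CPM against 148 and 144 CPM, and neutrophil, erythroid and platelet markers to at most 2.05 CPM in any library. Of 11 MHC class II genes, 2 were called higher and 3 lower (45.5%, against 4.0% of all genes tested). Cd74, the invariant chain, was higher, at 160 and 139 CPM against 37.8 and 29.6 CPM (log2 fold change 2.15 ± 0.22, adjusted p = 0.000182). H2-Aa ran the other way, at 4.07 and 4.46 CPM against 15.3 and 13.1 CPM (log2 fold change -1.74 ± 0.22, adjusted p = 0.000874), as did H2-Ab1 and H2-Eb1.

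Genes of TGF-beta signalling, purine signalling and apoptosis were also called. Of 30 TGF-beta signalling genes 5 were called higher and 1 lower. The receptor gene Tgfbr1 was at 190 and 161 CPM in Treg cells against 44.3 and 46.0 CPM (log2 fold change 1.96 ± 0.24, adjusted p = 0.000631). Tgfbr3, the coreceptor betaglycan, was at 18.7 and 20.5 CPM against 90.9 and 102 CPM (log2 fold change -2.30 ± 0.23, adjusted p = 0.000153). Both were called in every fit, in opposite directions. Among 32 purine and cyclic nucleotide genes, 5 were called higher, P2ry10, Crem, P2rx7, Adora2a and Entpd1, and 3 lower, Pde3b, Pde7a and Adcy6. Without WT Treg replicate 1 or 2 or WT CD4+Foxp3- replicate 1 or 2, 1, 2, 2 and 1 of these were called higher and 1 lower each time, and of the TGF-beta genes 2 were called higher and 1 lower each time. In the Bcl2 family 4 of 23 were called higher, with a median log2 fold change of 0.56, among them Bcl2l1 (Bcl-xL) at 77.7 and 73.0 CPM against 39.0 and 33.8 CPM (log2 fold change 1.05 ± 0.17, adjusted p = 0.00431), although 0 of the 4 were called with any 1 of the 4 WT libraries left out.

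Lists of general cell functions had 0 to 3 members called each. Of 44 cell cycle genes 1 was called higher, E2f2, with a median log2 fold change of 0.31 and 36 genes above 0, and for the NF-kB list the median was 0.27 with 19 above 0. Interferon-stimulated genes had 3 of 37 called higher, NF-kB genes 2 of 24 higher and 1 lower, glycolysis genes 2 of 24 higher, S100, galectin and annexin genes 2 of 22 higher, and enzymes of DNA methylation and demethylation 1 of 23 higher and 1 lower. Of 20 housekeeping genes 0 were called by edgeR or DESeq2, and 0 had an unadjusted p under 0.05. These shares can be read against 4.0% of all genes tested.

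**Figure D3:**
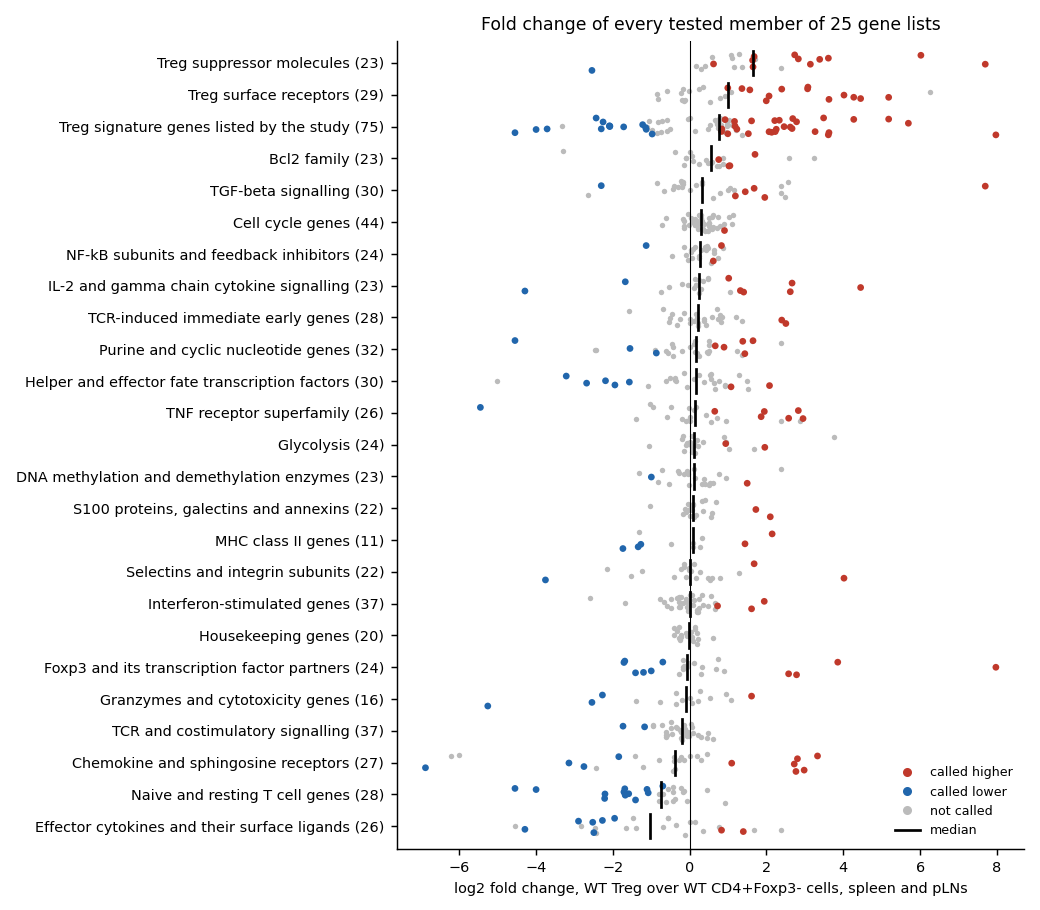
Log2 fold change of WT Treg over WT CD4+Foxp3- cells for every tested member of 25 gene lists, 1 point per gene, red for called higher, blue for called lower and grey for not called, with the median of each list as a black bar and the number tested in brackets. Suppressor molecules (median 1.64) and surface receptors (0.99) lie furthest to the right, and naive genes (-0.75) and effector cytokines (-1.04) furthest to the left.

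Some called genes lay next to each other, which was looked at around 4 genes chosen after the values were seen. Within 100 kb of Foxp3 lie 7 tested genes of the NCBIM37 annotation, Foxp3 included, of which 5 were called higher and 0 lower. Syp, which encodes the synaptic vesicle protein synaptophysin, 43.2 kb away, was at 33.7 and 34.6 CPM in Treg cells and at 2.20 and 2.09 CPM in CD4+Foxp3- cells (log2 fold change 3.99 ± 0.28, adjusted p = 1.4e-05). Plp2, 72.7 kb away, was at 120 and 131 CPM against 45.6 and 47.8 CPM (log2 fold change 1.43 ± 0.17, adjusted p = 0.000528). 4930524L23Rik, which overlaps the start of Foxp3 on the same strand so that their reads may be shared, was at 11.5 and 13 CPM against 0.836 and 1.21 CPM (log2 fold change 3.58 ± 0.37, adjusted p = 0.000182). The fifth was Ppp1r3f, whose annotated span takes in the whole of Foxp3 on the opposite strand. Ccdc22 and Prickle3 in the same window were not called (log2 fold changes -0.05 and 0.11). Around Tnfrsf18, 2 of the 6 other tested genes were called higher, Fam132a and, at a distance of 9.55 kb, Tnfrsf4, where 2.48% of all genes tested were called higher. Around Ctla4 the only other tested gene, Icos at 62.1 kb, was not called. Of the 4 genes around Il1rl1, 1 was called higher, Il1rl1 itself, and 1 lower. In the IL-1 receptor cluster on chromosome 1, Il1r2 and Il1rl1 were higher while Il1rl2, the receptor of IL-36, was at 1.69 and 1.6 CPM in Treg cells against 11.8 and 11.2 CPM (log2 fold change -2.80 ± 0.28, adjusted p = 0.000167).

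Many of the largest differences fell on genes of no list. Fsd1l was at 14.3 and 18.6 CPM in Treg cells against 3 reads in total in CD4+Foxp3- cells, a ratio of 142 (95% exact binomial interval 48.1 to 689, counting error only). Ctnnd1, which encodes the cadherin partner p120-catenin, was at 15.1 and 14.3 CPM against 0.304 and 0.563 CPM (log2 fold change 5.07 ± 0.51, adjusted p = 0.000168). Rln3, the gene of the peptide hormone relaxin-3, was at 31.5 and 25.3 CPM against 1.75 and 0.643 CPM (log2 fold change 4.55 ± 0.53, adjusted p = 0.000416). Dgat2, an enzyme of triglyceride synthesis, the glutathione transferase gene Gsta4 and the amino acid transporter gene Slc7a10 were higher with log2 fold changes of 4.22, 4.19 and 3.69. In Treg cells Pdlim4 (chromosome 11, 53868430 to 53882516), which encodes a PDZ and LIM domain protein, had 2 reads in total, against 28.2 and 37.1 CPM in CD4+Foxp3- cells, a ratio of 445 (95% exact binomial interval 123 to 3680, counting error only, edgeR adjusted p = 3.13e-05).

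Vipr1, the receptor of vasoactive intestinal peptide, was at 7.15 and 9.19 CPM in Treg cells against 102 and 121 CPM (log2 fold change -3.76 ± 0.34, adjusted p = 6.81e-05). App, the amyloid precursor gene, was at 2.15 and 1.53 CPM against 30.1 and 34.7 CPM (log2 fold change -4.14 ± 0.55, adjusted p = 0.00105). Atp8b4 and Atp8a2, phospholipid flippase genes, Ggt5, Aqp9, Nme4, Lypd6b and Ampd1 were lower with log2 fold changes between -5.11 and -3.67. By difference of TPM, a level per length, H2afz, Folr4, Tnfrsf4, Il2rb and Capg led the higher genes and Tcf7, Igfbp4, Ccl5, Cxcr6 and Id2 the lower ones. H2afz, which encodes the histone variant H2A.Z, was at 688 and 659 CPM in Treg cells against 239 and 264 CPM (log2 fold change 1.42 ± 0.20, adjusted p = 0.0013), and Capg, an actin capping protein, at 444 and 451 CPM against 106 and 103 CPM (log2 fold change 2.1 ± 0.32, adjusted p = 0.0023). Pdlim4, Fsd1l, Ctnnd1, Rln3, Dgat2, Gsta4, Vipr1, Atp8b4, Atp8a2, Ggt5 and Nme4 were called in every fit.

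The same contrast in mLN, with 3 WT libraries per cell type, asked how far the difference between Treg and CD4+Foxp3- cells was shared between tissues. There 1687 of 16784 genes (10.1%) were called, 1160 higher and 527 lower. Of 649 genes called in spleen and pLNs that were also tested in mLN, 542 were called there in the same direction, 359 higher and 183 lower, which is 83.5% of these calls and 33.1% of the 1638 paired calls of mLN. The sign was the same for 637 (98.2%), against 72.6% of all 15183 paired genes. Foxp3 was at 300 to 326 CPM in mLN Treg cells against 1.35 to 1.62 CPM (log2 fold change 7.74), and Lrrc32, Il2ra, Klrg1, Itgae, Cd40lg and Pde3b were called in both tissues. Il10 was at 17.8 to 22.2 CPM in mLN Treg cells against at most 0.608 CPM (log2 fold change 5.42, adjusted p = 0.00293), and Entpd1 reached a log2 fold change of 4.26 and Socs2 of 5.38. Of the cell cycle list 25 of 44 genes were called higher in mLN and of the suppressor list 19 of 22. Differences between the tissues were not tested, because each tissue has its own count table and was fitted alone.

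4 genes called in both tissues had opposite directions, and in spleen and pLNs these calls were often lost: of the 18 other fits Ccr9 was called in 11, Mmp9 in 10, Plac8 in 8 and Kctd12 in 6. Mmp9, a secreted metalloproteinase, was at 7.61 and 8.98 CPM in Treg cells of spleen and pLNs against 55.8 and 28.1 CPM (log2 fold change -2.34), and at 14.4 to 19.7 CPM in mLN Treg cells against 1.11 to 2.36 CPM (log2 fold change 3.21). Ccr9 was lower in spleen and pLNs, as given above, and at 95.8 to 114 CPM in mLN Treg cells against 22.7 to 30.7 CPM (log2 fold change 1.99). Plac8 and Kctd12 behaved likewise, with log2 fold changes of -1.72 and -1.17 in spleen and pLNs and of 2.14 and 0.90 in mLN. Cxcr6 and Klrb1c, far lower in Treg cells of spleen and pLNs, were not called in mLN (log2 fold changes 0.57 and -0.44, adjusted p = 0.252 and 0.648). In each of these genes the WT libraries of the cell types did not overlap in spleen and pLNs, with 2 of each, as in 55.3% of all genes tested there. The NK cell markers, which sum higher in CD4+Foxp3- cells of spleen and pLNs, had 2 of 9 members called lower in mLN.

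**Figure D4:**
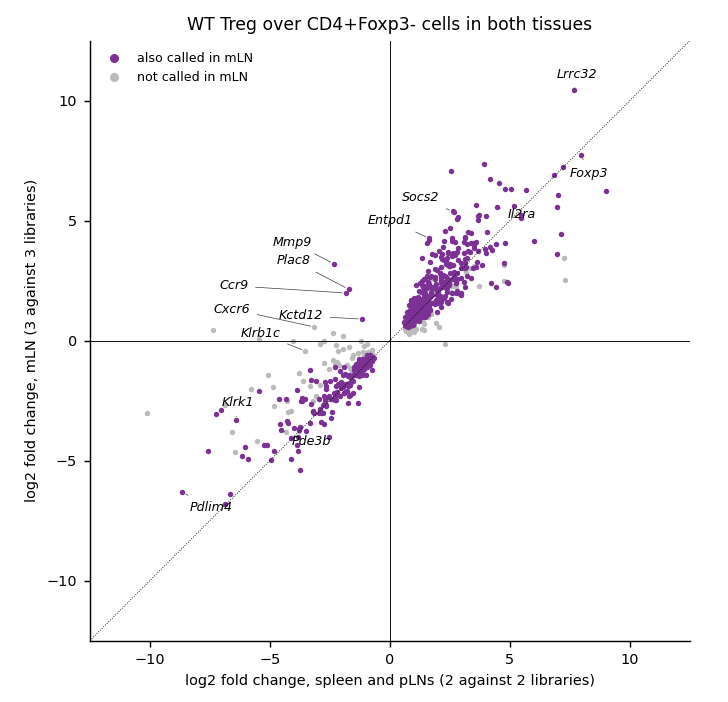
Log2 fold change of WT Treg over WT CD4+Foxp3- cells in spleen and pLNs (horizontal axis, 2 against 2 libraries) and in mLN (vertical axis, 3 against 3) for the genes called in spleen and pLNs and tested in both, purple where also called in mLN and grey where not. Most points lie in the quadrants of equal sign, and Mmp9, Ccr9, Plac8 and Kctd12 lie in that of opposite sign.

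The DKO mice offered the same contrast in the same tissue with Tet2 and Tet3 deleted in the Treg cells. The gate reads current YFP, so CD4+YFP- cells of these mice can include cells that expressed Foxp3 and Cre earlier, and the DKO reference population need not match the WT one. Between DKO Treg and DKO CD4+Foxp3- cells 617 genes (3.77%) were called, 353 higher and 264 lower. Of the 654 WT calls, 351 were also called in DKO mice in the same direction (212 higher, 139 lower), which is 53.7% of the WT and 56.9% of the DKO calls, and 0 were called in the opposite direction. Both contrasts share 1 estimate of the spread but no library. The sign was the same for 644 of the 654 genes, and the absolute log2 fold change was smaller in DKO mice for 500. In DKO mice the median was 1.04 among the genes higher in WT Treg cells and -1.52 among the lower ones. The genes were chosen on their WT values, and this choice by itself favours smaller values in DKO mice. Foxp3, Ikzf4, Il2ra, Klrg1, Itgae and Gpr83 were called in both genotypes, with DKO log2 fold changes of 9.39, 3.99, 3.64, 3.38, 4.82 and 3.73. Ctla4 was not called in DKO mice (log2 fold change 0.24), where Treg cells were at 231 and 235 CPM and the CD4+Foxp3- replicates, which stood apart from each other, at 344 and 50.4 CPM.

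Il1rl1 (chromosome 1, 40486415 to 40522260) was the 1 gene (0.00611%) called in spleen and pLNs for a Treg over CD4+Foxp3- difference that itself differed between the genotypes. DESeq2 called 11 such genes, and edgeR 0 to 674 with 1 library left out, the most without DKO CD4+Foxp3- replicate 2 and 268 without DKO Treg replicate 2. In DKO mice it was at 6.58 and 5.87 CPM in Treg cells and at 6.09 and 9.56 CPM in CD4+Foxp3- cells, so that the 93.5 and 111 CPM of WT Treg cells stood apart from all 6 other libraries. The difference of log2 fold changes was 4.59 ± 0.38 (edgeR interaction, adjusted p = 0.000688). It was 4.24 to 5.02 with each of the 8 libraries left out in turn, with an adjusted p from 1e-05 to 0.113, the last without DKO Treg replicate 1. With the replicate block its adjusted p was 0.422 at a difference of 4.58, and with filterByExpr or a mean of 1 CPM or more it was 0.103 and 0.105. With limma on log2(TPM + 1) and log2(TPM + 0.1) it was 0.145 at a difference of 3.54 and 0.185 at 4.38, so in these 5 fits Il1rl1 was not called. At an unadjusted p under 0.05 stood 905 genes. A list of 76 Treg signature genes that the study names as altered in DKO Treg cells had 75 tested members, 28 called higher in WT Treg over WT CD4+Foxp3- cells and 14 lower, but it was drawn up on these samples and is no independent evidence of either direction. Its members called in every fit include Ecm1, Gbp1, Sh3bgrl2, Tgfbr3, Pde3b and Cish.

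**Figure D5:**
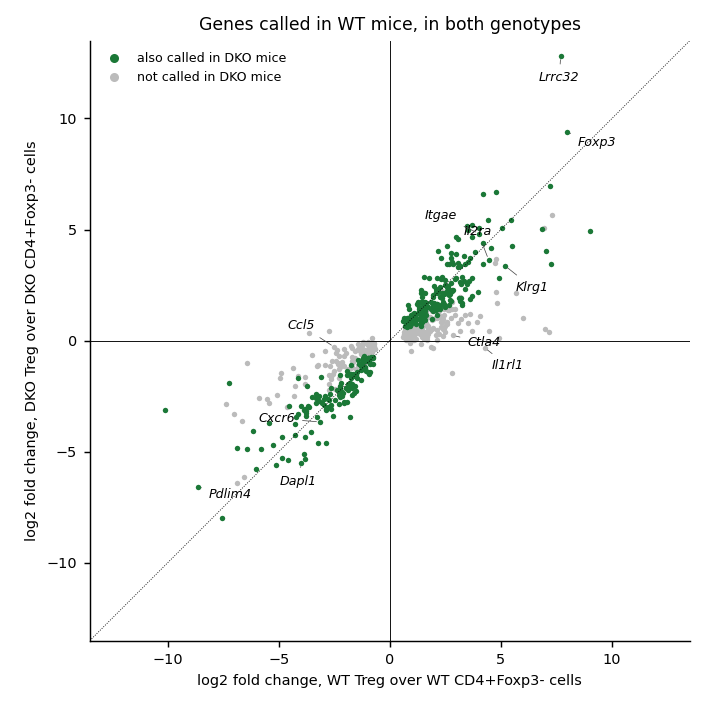
Log2 fold change of Treg over CD4+Foxp3- cells in spleen and pLNs in WT mice (horizontal axis) and in DKO mice (vertical axis), 2 against 2 libraries each, for the 654 genes called in WT mice, green where also called in DKO mice and grey where not. Points of genes without reads in 1 group, such as Lrrc32 in DKO mice, depend on the prior count of the fit, and Il1rl1 lies at 4.27 in WT and -0.32 in DKO mice.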

How the data were processed

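RNA was measured by sequencing in sorted T cells of pooled spleen and pLNs (8 libraries, 2 per group) and of mLN (12 libraries, 3 per group), each group being a genotype and a cell type given by the sample titles. The study made stranded mRNA libraries, read single-end, aligned them to mm9 with TopHat2 2.1.1 keeping 1 alignment per read, and counted reads on RefSeq genes with featureCounts of Subread 1.4.3-p1, using strand. The deposited counts are these reads per gene, not normalized, so reads of near-identical gene copies may be misplaced. How the authors derived the deposited TPM is not given in the sources used here.

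Counts were normalized with TMM and tested with edgeR 4.0.16 (R 4.3.3) by its quasi-likelihood test, fitting all 4 groups of each tissue jointly without a replicate block, on genes of at least 1 count in total. Calls needed a p of 0.05 or less after Benjamini-Hochberg adjustment over all genes tested, and at least a 1.5-fold change. The genotype by cell type term was tested in the same fit. A fold against a group without reads was set against 3 counts per library, and where the lower group held 1 to 3 reads in total the ratio has an exact binomial interval (95%, SciPy). Counted reads per library ranged from 13525932 to 15253141 (spleen and pLNs) and from 9998478 to 15449158 (mLN), and the common biological coefficient of variation was 21.6% and 17.7%. The labels call the libraries replicates without naming animals, so p-values measure the spread between these libraries.

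In mLN, deviations from the group means correlated between same-numbered WT Treg and WT CD4+Foxp3- libraries (r = 0.171, 0.174 and 0.183, against -0.108 to -0.0619 for other pairs), and the count with a replicate block was 1775 in place of 1687. In spleen and pLNs both DKO cell types came from the same 2 mice, per the study, but no source ties the numbers to them, and the fit with the block is given beside the count. Genes named are list members, the 15 largest fold changes in each direction among calls whose groups did not overlap and whose higher group averaged 10 CPM or more, the 10 largest TPM differences in each direction, called genotype by cell type genes, and genes called in opposite directions in the tissues. Genes near Foxp3, Ctla4, Tnfrsf18 and Il1rl1, the Klr group and the promoters shown were chosen after their values were seen. Members and lists were chosen with earlier results of these data known. Alternatives were DESeq2 1.42.0 or its size factors, filterByExpr, robust dispersion, a replicate block, WT libraries only, limma 3.58.1 on log2(TPM + 1) or log2(TPM + 0.1), other fold minimums, each library left out, and, added after seeing the data, a mean of 1 CPM or more. The workflow was tested on simulated data, where it made no error of sign but called more unchanged genes than the threshold allows in several settings, most of all in spleen and pLNs with gene-wise dispersions. Coordinates are whole genes of GENCODE M1 on NCBIM37, the assembly of mm9, and promoters are RefSeq sequences on GRCm38.p6. Some members of the lists are counted but not reported here by name.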

Additional observations from a re-analysis of the deposited data

Results flagged for a closer look

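Il1rl1, the IL-33 receptor gene, differed in its Treg over CD4+Foxp3- contrast between the genotypes, by a tested difference of 4.59 on the log2 scale (4.27 in WT and -0.32 in DKO mice, edgeR adjusted p = 0.000688). It was not called with the replicate block (adjusted p = 0.422), with filterByExpr (0.103), with a mean of 1 CPM or more (0.105), with limma (0.145 and 0.185) or without DKO Treg replicate 1 (0.113).

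Mmp9, Ccr9, Plac8 and Kctd12 had every WT Treg library on one side of every WT CD4+Foxp3- library in spleen and pLNs and on the other side in mLN. The log2 fold change of Mmp9 was -2.34 in spleen and pLNs and 3.21 in mLN, and that of Ccr9, the receptor for the small intestine, was -1.84 and 1.99. For Plac8 it was -1.72 and 2.14, and for Kctd12 it was -1.17 and 0.90. Such separation was found in 55.3% of genes tested in spleen and pLNs and in 41.5% in mLN, and the calls in spleen and pLNs were made in 10, 11, 8 and 6 of the 18 other fits. The difference between the tissues was not tested for these 4 genes.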

How the results depend on the processing

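Each of the 654 calls of WT Treg against WT CD4+Foxp3- cells in spleen and pLNs kept its direction in every fit that tested it. With no overlap between the WT groups in any of the 654, a reversal was hardly possible. The number of calls did not hold. It was 379 with filterByExpr, which tests 11671 genes, 358 for a mean of 1 CPM or more, 360 with the replicate block (319 of the 654 called), 188 and 269 with limma on log2(TPM + 1) and log2(TPM + 0.1), and 2060 and 1461 with the WT libraries alone by edgeR and DESeq2. Leaving out 1 library gave 144 to 1407 calls, where an arm of 1 sample is assumed to vary like the others. DESeq2's size factors, DESeq2 with 4 groups, robust dispersion and other fold minimums gave 483 to 788. In mLN the 1687 calls became 2544 with the WT libraries alone by edgeR, 1121 at a fold change of at least 2 and 1149 to 2148 with 1 library left out, and limma on TPM moved the share of calls that were higher from 68.8% to 79.9% and 78.5%. For DKO Treg against DKO CD4+Foxp3- cells the 617 calls became 342 with filterByExpr, 319 with a mean of 1 CPM or more, 348 with the replicate block, 265 and 320 with limma on log2(TPM + 1) and log2(TPM + 0.1), and 185 to 1586 with 1 library left out. There limma moved the share higher from 57.2% to 73.6% and 71.9%. The genotype by cell type term called 1 gene, 2 with DESeq2's size factors, 11 with DESeq2, 3 with robust dispersion, 3 and 2 with limma on log2(TPM + 1) and log2(TPM + 0.1), 0 with filterByExpr, with a mean of 1 CPM or more and with the replicate block, and 0 to 674 with 1 library left out. The cause of these shifts was not tested. Of 864 recomputed list counts, 368 stayed within 1.5 times, 385 were lower and 111 higher. In spleen and pLNs, deviations of same-numbered WT Treg and WT CD4+Foxp3- libraries correlated with r = 0.213 over 10950 genes (-0.213 for the other pairs, which mirror them with 2 per group). Where a group held 1 to 3 reads in total, the ratio rests on those reads.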

Other observations

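Cd79b, which encodes a subunit of the B cell receptor, came close to the threshold of the genotype by cell type test. It was at 28.8 and 26.2 CPM in WT Treg cells, at 5.27 and 7.65 CPM in DKO Treg cells and at 2.33 to 3.89 CPM in the 4 CD4+Foxp3- libraries (difference of log2 fold changes 2.70 ± 0.37, edgeR adjusted p = 0.0526). F2r, which encodes the thrombin receptor PAR1, was at 76.8 to 82.8 CPM in all 4 WT libraries, at 40.9 and 37.8 CPM in DKO Treg cells and at 106 and 108 CPM in DKO CD4+Foxp3- cells (difference 1.49 ± 0.20, adjusted p = 0.0504). Both genes were picked after their values were seen, as those with the smallest p in this test short of the threshold, and neither passed it.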
